A study of Homo sapiens with 20 samples.

Results

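HIF1A occupancy was examined at 5 genes that handle protons and bicarbonate: the carbonic anhydrase genes CA9, CA12 and CA2, and the sodium bicarbonate cotransporter genes SLC4A4 and SLC4A7. Chromatin was immunoprecipitated with a HIF1A antibody and sequenced (ChIP-seq) in 4 established human cancer cell lines: HCT116 (colorectal carcinoma), RKO (colon carcinoma), A549 (lung adenocarcinoma) and H460 (lung large cell carcinoma). Each line was kept for 24 h either in normoxia or at 1% oxygen (hypoxia), and the 20 samples comprise 16 ChIP libraries, 2 of each line in each condition, and 4 inputs, 1 of each line. Replicates had been merged before peaks were called, which leaves 1 peak list for each line and condition and no replicate error for any value below. HCT116 was grown in McCoy's 5A medium, RKO and A549 in DMEM and H460 in RPMI. The number of sonication cycles was the same for HCT116 and RKO and differed in A549 and in H460. Any 2 lines thus differed in medium, in sonication or in both, and line cannot be told apart from these. A gene was counted as having a peak when the centre of a deposited peak lay between 10 kb upstream of its start and 10 kb past its end. The 5 genes are among 20176 protein-coding genes, and their windows sum to 806 kb, of which SLC4A4 takes 529 kb. Over the 8 lists 16 peaks fell in these windows, 13 of them in hypoxia and 3 in normoxia, and they form 12 separate regions. All coordinates are in GRCh37.

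HIF1A is stabilized when oxygen is low, pairs with ARNT and binds hypoxia response elements whose core reads ACGTG or GCGTG. Among the best known genes it activates are those of glycolysis, and glycolytic cells export acid. Carbonic anhydrases interconvert carbon dioxide and bicarbonate. CA9 and CA12 are membrane enzymes with their catalytic site outside the cell, CA2 is the abundant cytosolic enzyme, and SLC4A4 (NBCe1) and SLC4A7 (NBCn1) carry sodium together with bicarbonate into or out of the cell. CA9 is a textbook hypoxia marker of tumours.

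The merged libraries held 41.2 M to 81.5 M tags (1 M is 1000000 and a tag is 1 aligned read), and the lists held 287 to 9171 peaks. Signal is given as the normalized tag count, the tags in a peak per 10 M tags of the library. The fold over input that a peak had to reach was 6 in RKO, 7 in HCT116, 13 in A549 and 14 in H460, so a missing peak does not mean the same in each line, and the signal at a site without a peak was not analysed here. The weakest peak in a hypoxia list held between 1.94 tags per 10 M (RKO) and 2.63 (H460). The labels of the inputs conflict. The descriptions of the 2 inputs titled RKO and A549 each name the other of these lines, and the source label of every input names HCT116. Titles and the cell line label were followed, and the file headers name an input of the same line for each list, but all folds over input in RKO and A549, and the calls made from them, rest on these 2 inputs.

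The sequences of 4 sites with a called peak are shown first. They were chosen because they carry the core that the comparisons below refer to. They were read from GRCh37 on the strand of the gene, and capitals mark ACGTG or GCGTG read on either strand. The CA9 sequence is the 150 bases that end just before the gene start (chr9:35673775-35673924, plus strand), and holds the only core in the 200 bp at the centre of each CA9 peak. The first CA12 sequence is the A549 peak in the second intron of the canonical transcript (chr15:63664701-63664841, minus strand), a site also called in RKO. The next is the A549 peak in the first intron (chr15:63673202-63673342, minus strand), where 5 cores, of which a pair shares a base, lie in and beside an alternating CA run. The SLC4A7 sequence is the RKO peak just upstream of the gene (chr3:27525919-27526079, minus strand), a weak peak above 20.5% of its list. The A549 peak at SLC4A7, which lacks a core, is not shown.
CA9 upstream of the start: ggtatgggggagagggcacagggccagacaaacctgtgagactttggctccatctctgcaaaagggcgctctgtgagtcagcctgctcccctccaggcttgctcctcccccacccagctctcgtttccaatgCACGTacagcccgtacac
CA12 second intron: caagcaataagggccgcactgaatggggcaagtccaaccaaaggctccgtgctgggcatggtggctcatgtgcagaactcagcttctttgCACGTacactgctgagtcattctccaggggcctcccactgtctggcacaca
CA12 first intron: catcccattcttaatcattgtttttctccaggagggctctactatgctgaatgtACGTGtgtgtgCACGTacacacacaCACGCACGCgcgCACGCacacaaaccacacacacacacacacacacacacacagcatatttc
SLC4A7 upstream of the start: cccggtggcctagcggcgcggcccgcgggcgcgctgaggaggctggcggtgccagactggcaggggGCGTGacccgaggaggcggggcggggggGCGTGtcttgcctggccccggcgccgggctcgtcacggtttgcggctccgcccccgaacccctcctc

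All 5 genes had a hypoxia peak in RKO, where 28.3% of protein-coding genes had one in the same kind of window. In A549 it was 3 of the 5 (CA9, CA12 and SLC4A7), against 21.5% of protein-coding genes. In H460 it was 2 (CA9 and CA12), against 18.4%, and in HCT116 it was 1 (CA2), against 19.9%. Gene length moved with these shares. Among genes of 100 kb or longer, such as SLC4A4 and SLC4A7, a hypoxia peak was present in 49.5% (RKO), 34.4% (A549), 25.6% (H460) and 25.8% (HCT116), and among shorter genes, such as the 3 carbonic anhydrase genes, in 23.5%, 18.6%, 16.7% and 18.6% in that order. Per Mb of window, the hypoxia peaks at the 5 genes were closer to the background than these shares. They numbered 6.20 in RKO, against 4.46 over the windows of all protein-coding genes, and 4.96 in A549, against 3.04. In H460 it was 2.48 against 2.54, and in HCT116 2.48 against 2.70. In normoxia no member had a peak in HCT116 or H460, 2 had one in RKO (CA2 and SLC4A4) and 1 in A549 (CA9), where the backgrounds were 1.29%, 3.81%, 6.93% and 2.76%. More members had a peak in hypoxia than in normoxia in 4 of 4 lines, by a mean of 2.0 ± 0.82 genes (SD, n = 4 lines, 2.75 against 0.75 genes), and an exact two-sided test that flipped the signs of the differences gave p = 0.125, below which 4 lines cannot go. Each hypoxia list was longer than the normoxia list of its line, and the share of all protein-coding genes with a peak also rose. The test therefore cannot set the members apart from the whole lists. No member had a hypoxia peak in all 4 lines, as 3.26% of protein-coding genes did. CA9 and CA12 had one in 3 lines each, and 9.75% of protein-coding genes had one in 3 or more. CA2 (HCT116 and RKO) and SLC4A7 (RKO and A549) had one in 2 lines each, and SLC4A4 in RKO only among the 4 lists.

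**Figure D1:**
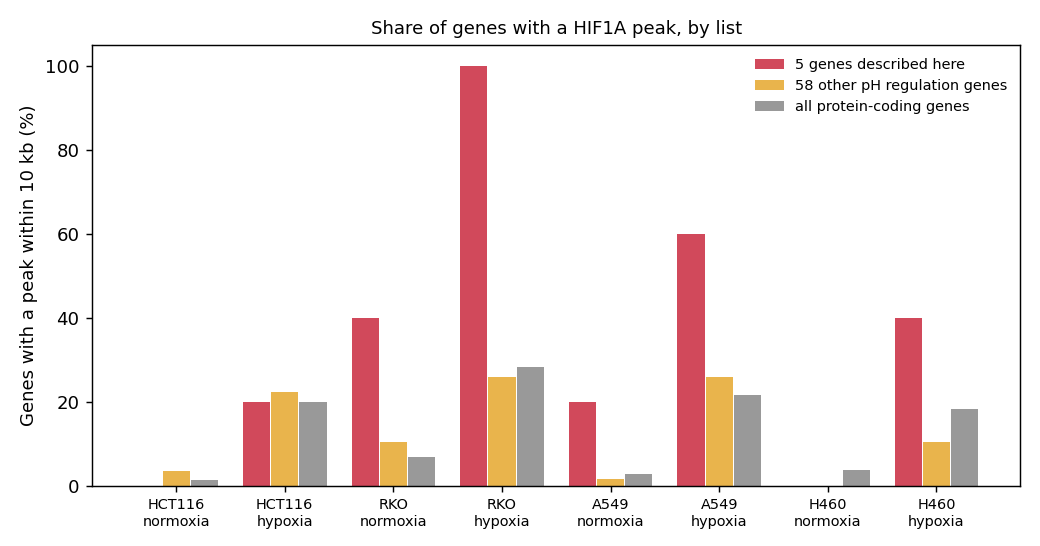
Percentage of genes with a HIF1A peak within 10 kb in each of the 8 lists, for the 5 genes described here, 58 other pH regulation genes and all protein-coding genes (bars start at 0). In hypoxia the bar of the 5 genes stands for 5 genes in RKO, 3 in A549, 2 in H460 and 1 in HCT116.

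CA9 carried the strongest peak of the group, and it lay on the start of the gene (chromosome 9 from 35673925, plus strand; ENSG00000107159.14_7). In hypoxia the signal was 51.5 tags per 10 M in A549 (exact Poisson 95% interval 45.2 to 58.5, counting error only), 23.7 in H460 (19.6 to 28.4) and 4.78 in RKO (3.27 to 6.75). HCT116 had no CA9 peak in either condition. The peak outranked 99.1% of the A549 hypoxia list, 90.9% of the H460 list and 89.8% of the RKO list, so it was among the upper peaks of every list that held it. Peak centres lay 23 bp upstream of the gene start in A549, 24 bp upstream in H460 and 7 bp downstream, in the UTR exon, in RKO. They lie within 34 bp of each other over the 4 lists with the peak, and the core begins at position 35673907. The gene ARHGEF39 overlaps the same bases on the other strand, but the nearest gene start was that of CA9 in each case.

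Between lines, the CA9 signal in hypoxia was 10.8-fold higher in A549 than in RKO (95% counting interval 7.43 to 16.1), 2.18-fold higher in A549 than in H460 (1.74 to 2.74) and 4.95-fold higher in H460 than in RKO (3.32 to 7.56). These intervals cover counting error in merged libraries and say nothing of replicate error. The lists also differed in the strength of the peaks they share. Over the 233 regions called in all 4 hypoxia lists the median signal was 26.9 tags per 10 M in H460, 23.0 in A549, 11.7 in HCT116 and 9.72 in RKO. Relative to that median CA9 stood at 2.24 in A549, 0.88 in H460 and 0.49 in RKO, and the difference between A549 and RKO became 4.55-fold. The order of the lines stayed the same on this scale.

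CA9 was also the only member region called in both conditions of a line. In A549 its signal was 6.79 tags per 10 M in normoxia (28 tags, 95% interval 4.51 to 9.81) and 51.5 in hypoxia (240 tags), a ratio of 7.59 (95% interval 5.12 to 11.7). An exact conditional binomial test over all 176 A549 peaks called in both conditions gave an adjusted p of 9.78e-37 (Benjamini-Hochberg), and it compares 2 merged libraries, not the conditions. Of those peaks 73.3% were higher in hypoxia by the same test, so a call of this kind was common in A549. The log2 ratio of CA9 was 2.92 against a median of 1.27, and 173 of the 176 peaks had a lower ratio. The normoxia peak held the same core and outranked 77.0% of its list.

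**Figure D2:**
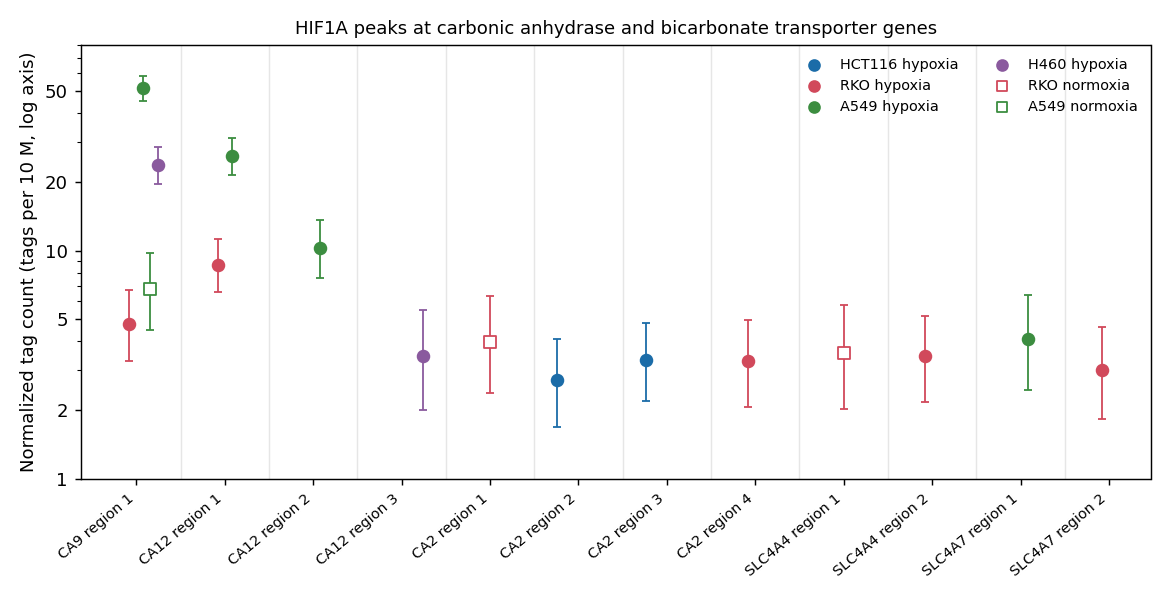
Normalized tag count (tags per 10 M, log axis) of each peak at the 5 genes, by region, with regions of a gene numbered by position on the chromosome; circles are hypoxia, open squares normoxia, colours the lines, and bars exact Poisson 95% intervals of the tags. CA9 spans 4.78 to 51.5 in hypoxia, the first CA12 region 8.67 and 26.0, and the remaining peaks at CA2, SLC4A4 and SLC4A7 lie between 2.70 and 4.08.

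CA12, which lies on the minus strand of chromosome 15 from 63613577 to 63674045 (ENSG00000074410.14_12), had 3 regions, and the sites differed between lines. The strongest was in the second intron, 9.27 kb downstream of the gene start in A549 and 9.29 kb in RKO. Its signal was 26.0 tags per 10 M in A549 (95% interval 21.6 to 31.0) and 8.67 in RKO (6.58 to 11.2). It outranked 95.6% of the A549 list and 96.7% of the RKO list, and both peaks held the single core printed above. The A549 signal was 3.0-fold higher than that of RKO (95% counting interval 2.17 to 4.17), and 1.27-fold higher relative to the regions called in all 4 lines. It stood at 1.13 of the median of those regions in A549 and at 0.89 in RKO. HCT116 and H460 had no peak there.

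The other CA12 regions were each called in 1 line. A549 had a peak in the first intron, 773 bp downstream of the gene start, at 10.3 tags per 10 M (95% interval 7.60 to 13.7), above 83.5% of its list. H460 had a peak 125 bp downstream of the start in the UTR exon, at 3.44 tags per 10 M (2.00 to 5.50), with 17 tags. That H460 peak was among the weakest of its list, above 4.46% of it, although its 200 bp held 2 cores. No line had a CA12 peak in normoxia.

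**Figure D3:**
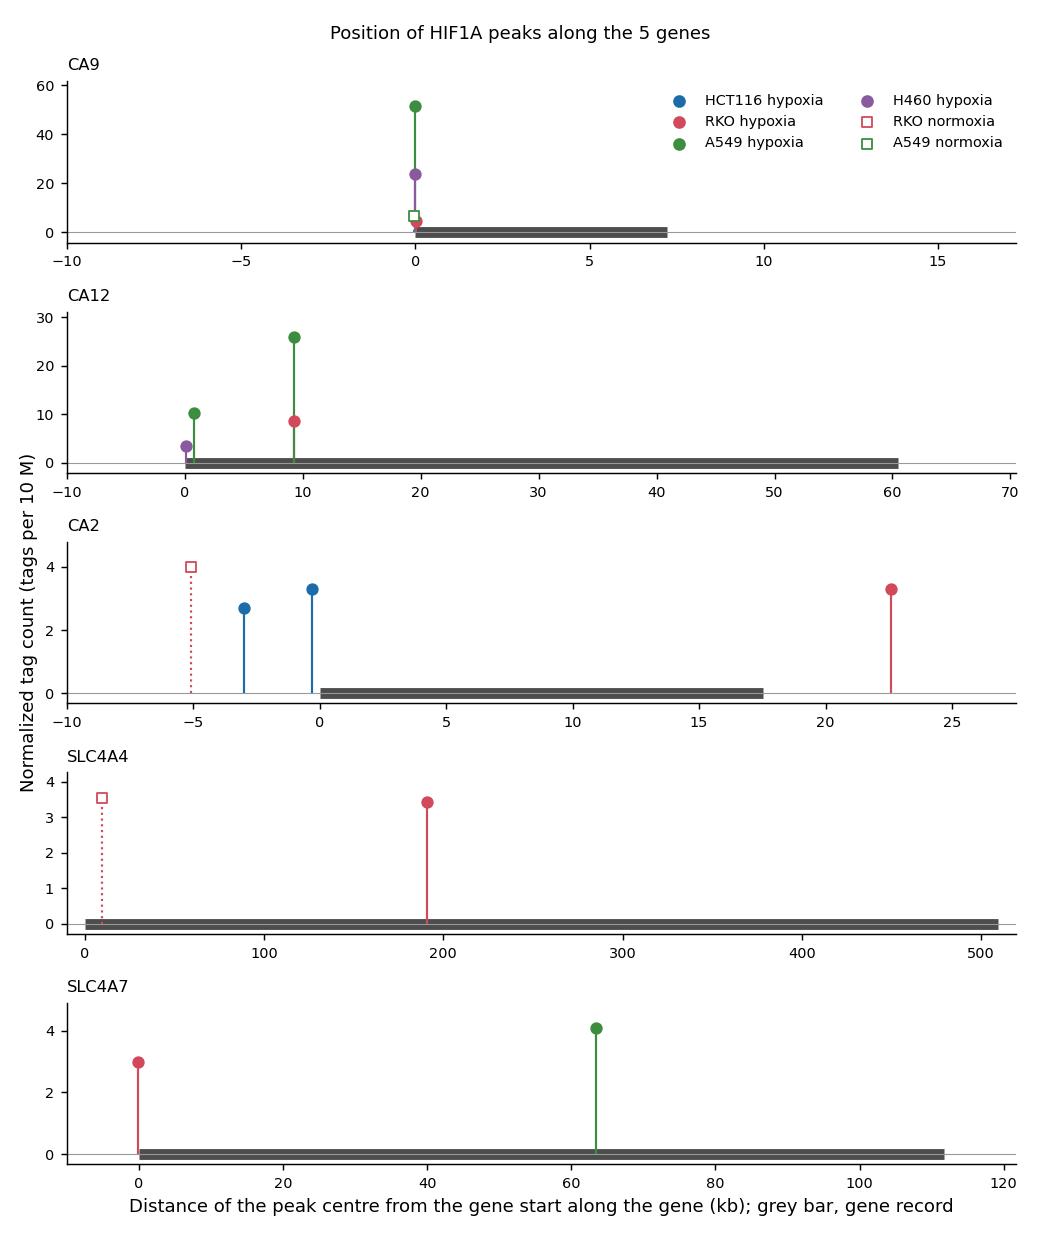
Distance of each peak centre from the gene start in kb (horizontal axis, in the direction of transcription) against the normalized tag count (tags per 10 M); grey bars are the gene records, circles hypoxia, open squares normoxia. The CA9 peaks stack on the start, the strongest CA12 peaks lie 9.27 and 9.29 kb inside the gene, and the SLC4A4 hypoxia peak lies 191 kb inside.

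CA2, SLC4A4 and SLC4A7 had 6 hypoxia peaks, all weak, with signals from 2.70 to 4.08 tags per 10 M, and no region of these genes was called in more than 1 line. CA2 (chromosome 8 from 86376197 to 86393722, plus strand; ENSG00000104267.10_6) had its hypoxia peaks upstream of the gene in HCT116 and past its end in RKO. In HCT116 a peak 317 bp upstream of the start held 3.31 tags per 10 M (95% interval 2.18 to 4.82), and another 3.01 kb upstream held 2.70 (1.69 to 4.09). The first had a core and outranked 55.4% of the HCT116 list, and the other had none and outranked 17.4%. Both lie within the record of the antisense gene CA3-AS1. The RKO hypoxia peak was 5.07 kb past the end of CA2, held 3.29 tags per 10 M (2.06 to 4.98) and lacked a core, and the start of ENSG00000254380, a lncRNA gene, was nearer. The RKO normoxia peak was elsewhere, 5.10 kb upstream of the start, at 3.99 tags per 10 M (2.37 to 6.31) and without a core.

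SLC4A4 (chromosome 4 from 71928384 to 72437804, plus strand; ENSG00000080493.19_14) had peaks in RKO and in none of the other 3 lines. Its hypoxia peak was in the second intron of the canonical transcript, 191 kb from the start of the gene record, with 3.44 tags per 10 M (95% interval 2.18 to 5.16). The nearest annotated transcript start lay 1555 bp downstream of it, and that transcript has no defined coding sequence. The canonical transcript starts at position 72052976, far upstream of the peak. Its normoxia peak lay at another place, 9.70 kb inside the gene record but upstream of the canonical transcript, with 3.55 tags per 10 M (2.03 to 5.76). Neither window of 200 bp held a core.

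SLC4A7 (chromosome 3 from 27414212 to 27525911, minus strand; ENSG00000033867.17_15) had a promoter peak in RKO and an intronic peak in A549. The RKO peak was centred 88 bp upstream of the gene start, held 2.99 tags per 10 M (95% interval 1.83 to 4.62) and had 2 cores, both on the strand of the gene. It outranked 20.5% of the RKO list. The A549 peak was in the ninth intron of the canonical transcript, 63.4 kb from the start of the gene record. It held 4.08 tags per 10 M (2.46 to 6.37), above 50.9% of its list and without a core. An annotated start of another SLC4A7 transcript lay 3080 bp away. By gene records alone, the start of ENSG00000287348 (51438 bp away) was nearer than that of SLC4A7.

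**Figure D4:**
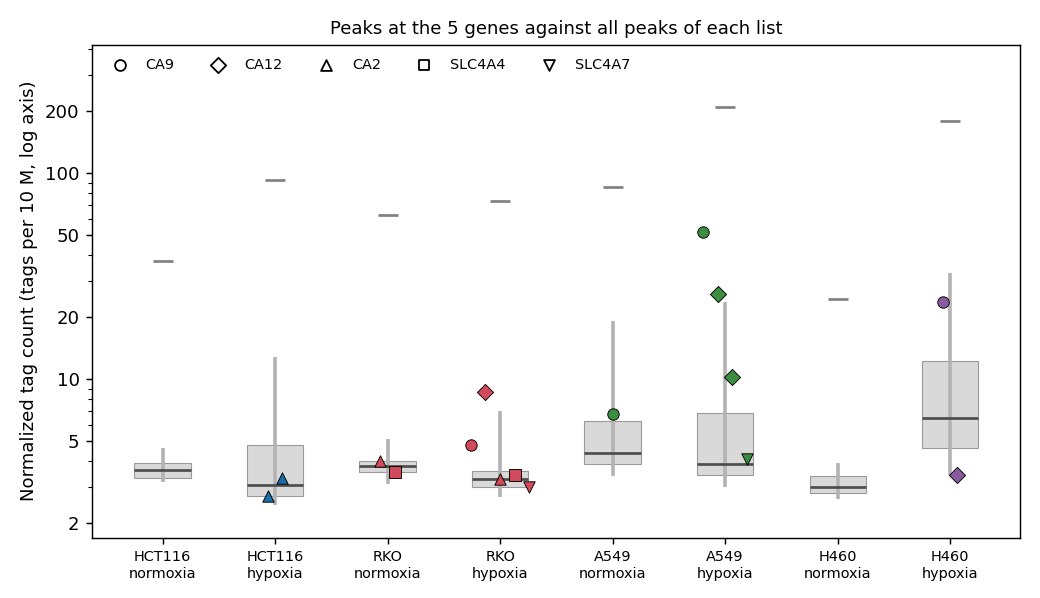
Normalized tag count (tags per 10 M, log axis) of the peaks at the 5 genes (symbols) over all peaks of each list: box between the quartiles, dark line the median, vertical line from the 5th to the 95th percentile, dash the strongest peak. In hypoxia CA9 in A549 (51.5) and CA12 in A549 (26.0) and RKO (8.67) lie above the 95th percentile, while CA2, SLC4A4 and SLC4A7 outrank 17.4% to 62.3% of their lists.

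Within 200 bp centred on the peak, the core ACGTG or GCGTG on either strand was present in 9 of the 13 hypoxia peaks (69.2%, Wilson 95% interval 42.4 to 87.3), which include 3 peaks at the same CA9 site and 2 at the same CA12 site. The interval treats peaks at the same site as if they were independent. Among all hypoxia peaks the share was 30.5% in RKO and 52.4% in A549, and it was 65.2% for HCT116 and 76.9% for H460, while windows 2000 bp to either side held it in 19.5% to 24.1%. By gene, the core was found in 3 of 3 CA9 peaks, 4 of 4 CA12 peaks, 1 of 3 CA2 peaks, 1 of 2 SLC4A7 peaks and in the SLC4A4 peak not at all. Every CA9 and CA12 hypoxia peak, except that of CA12 in H460, lay above the upper quartile of signal of its list. Among all hypoxia peaks above that quartile, the core was present in 61.7% in RKO, 89.5% in A549, 94.4% in H460 and 92.6% in HCT116. Of the 3 normoxia peaks, CA9 in A549 held it (42.8% of that list did) and the RKO peaks at CA2 and SLC4A4 did not (17.5%). The 4 hypoxia peaks without it had signals of 2.70 to 4.08 tags per 10 M, and those with it 2.99 to 51.5. The weak peaks with a core at a gene start lay in GC-rich sequence: GC content over the 200 bp was 78% at CA2 in HCT116, 78% at SLC4A7 in RKO and 73% at CA12 in H460, while the list medians were 62.5%, 44% and 58%. GC content was also above the list median at the CA9 peaks, with 65.5% in RKO, 63% in A549 (median 50%) and 62.5% in H460. At the first CA12 intron in A549 it was 44.5%, below the list median. The part of GC content in these calls was not tested. Of the 10 hypoxia regions 8 were called in 1 line, 1 (CA12, second intron) in 2 lines, 1 (CA9) in 3 and 0 in all 4, while 90.3%, 6.28%, 2.28% and 1.19% of all 19625 hypoxia regions were called in 1, 2, 3 and 4 lines.

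Among the hypoxia peaks of the 5 genes, the fold over input was highest at CA9 in A549 (108) and at the first CA12 intron in A549 (87.6), followed by CA9 in H460 (69.4) and the second CA12 intron in RKO (65.3). The values for RKO and A549 rest on the inputs with conflicting labels. Input tags were few at all of these sites. The input, scaled to the smaller library, held 1 or 2 tags under the CA9 peaks and 6 under the second CA12 intron in A549, where the fold was 18.0. It was entered as 0.5 under the first CA12 intron in A549 and the second CA12 intron in RKO. That was the lowest value at any peak of the 5 genes, so these 2 folds rest on less than 1 input tag. The same value was entered under the CA12 peak in H460, the SLC4A7 peak in A549 and the CA2 peak nearest the gene start in HCT116. CA9 in RKO passed with a fold of 9, below the threshold applied to A549 or H460, and with a fold of at least 14 asked of every list RKO kept 1 of its 5 genes, CA12. With a signal of at least 5 tags per 10 M in every list, the hypoxia calls that stayed were CA9 in A549 and H460 and CA12 in A549 and RKO.

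Of 58 other genes for acid and bicarbonate handling, 33 (56.9%) had a hypoxia peak in their window in at least 1 line, and 51.7% of protein-coding genes did. By line the number was 15 in RKO (25.9%, against 28.3% of protein-coding genes), 15 in A549 (25.9%, against 21.5%), 13 in HCT116 (22.4%, against 19.9%) and 6 in H460 (10.3%, against 18.4%). None of the 58 had a hypoxia peak in all 4 lines. Peaks in at least 1 hypoxia list were found at 8 of 12 other carbonic anhydrase genes, 7 of 8 other SLC4 transporter genes, 5 of 9 sodium-proton exchanger genes, 1 of 4 proton-sensing receptor genes and 12 of 25 proton pump subunit genes. A hypoxia peak in 2 or more lines was found at 14 of the 58, and at 23.3% of protein-coding genes. The strongest was beside SLC4A9, a transporter of the same family, 2258 to 2283 bp upstream of its start, with 15.5 tags per 10 M in A549, 8.34 in HCT116 and 7.92 in RKO, and the start of ENSG00000253965, a lncRNA gene, was nearer. At SLC4A2, a chloride-bicarbonate exchanger, a site at the start of FASTK, 23671 to 23678 bp downstream of the SLC4A2 start, held 9.69 in HCT116 and 8.52 in RKO, and H460 had another peak at 4.25. GPR4, a proton-sensing receptor, had a peak 17187 bp downstream of its start at 11.1 tags per 10 M in H460, and one 17457 bp downstream at 3.44 in RKO. At CA11 a peak nearest to the start of DBP held 5.89 in HCT116 and 4.19 in RKO. The other 10 were CA8, CA13, SLC4A5, SLC4A10, SLC9A9, ATP6V0A4, ATP6V0D1, ATP6V0D2, ATP6V1B1 and ATP6V1E2, whose hypoxia peaks ran from 2.21 to 6.73 tags per 10 M.

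The pattern of the CA9 region, called in hypoxic RKO, A549 and H460 and in normoxic A549, was shared by 4 other regions. The nearest of them in signal lay 2019 bp from the start of ENSG00000253256, a lncRNA gene on chromosome 5, with a root mean square difference of 0.73 in log2 signal over the 4 lists, and held 30.9 tags per 10 M in H460, 8.97 in RKO, and 27.7 (hypoxia) and 10.2 (normoxia) in A549. The next were nearest to the starts of ENSG00000272824 (0.97), also a lncRNA gene, and RNPEPL1 (1.12). The CA12 intron, called in hypoxic RKO and A549 only among the 8 lists, had 117 regions with the same pattern. The nearest in signal were those nearest to the starts of PHACTR4 (difference 0.27), LINC01816 (0.37) and ZBTB7B (0.42), over 2 lists.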

How the data were processed

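The authors aligned reads to GRCh37 (hg19) with Bowtie2 2.2.9, kept alignments with mapping quality above 10 and marked duplicates. After merging replicates, peaks were called by HOMER 4.3 against the line's input, with a local fold of 3 required per the file headers. The deposited normalized tag count is a signal scaled by the authors to 10 M tags per library. The deposited input tags are a signal scaled to the smaller library, and the deposited fold columns are ratios over input or over the surrounding region. Whole tags were recovered here from the signal and the header total, and their sum equalled the header value in all 8 lists.

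Genes were GENCODE 44 records mapped to GRCh37, and all peaks lay within the reference chromosomes. Peaks sharing at least 1 bp were joined into regions. The text names the 5 members with every peak, other pH genes with hypoxia peaks in 2 or more lines, and the 3 regions closest in pattern to the strongest CA9 and CA12 regions. The members and gene lists were chosen with earlier results of these data known. Tests were run with scipy 1.17.1 in Python 3.11.15 and sequences read with pysam 0.24.0. The binomial test was tried on simulated Poisson counts without replicate variation, which says nothing of replicate error. Intervals cover counting error only. Peak lists hold no expression, so line identity was not checked against markers. Alternatives were a common fold, local fold or signal minimum, other windows, nearest-start assignment, 50% overlap, peak width, common-region scaling, a 100 bp motif window and leaving out each line.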

Additional observations from a re-analysis of the deposited data

How the results depend on the processing

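No paired analysis was possible because each list pools both replicates of its group, as far as pairing by replicate number goes, and leaving out a replicate was not run for the same reason; conditions were paired by line only. Hypoxia exceeded normoxia in the mean number of members with a peak under each alternative run, by 0.75 (signal of at least 5) to 2.0 genes, and by 1.67 to 2.33 when each line was left out, where 3 lines allow no p below 0.25. A fold of at least 14 took the members with a hypoxia peak from 5 to 1 in RKO, and 6 of the 10 hypoxia regions were kept. HCT116 (1), A549 (3) and H460 (2) stayed as they were. H460 had been called at a fold of 14 already, so it could not change. A549 had been called at 13 and could lose only peaks with a fold from 13 to 14. A local fold of at least 6 left 3 members in RKO, 2 in A549, 1 in H460 and 0 in HCT116, and 4 regions. A signal of at least 5 left 2 in A549, 1 in RKO, 1 in H460 and 0 in HCT116, and 3 regions. A window of 50 kb gave 2 members in HCT116 and 16 regions. The count of regions called in 2 or more lines was 2, and 1 to 2 with a line left out: it was 1 without RKO and 1 without A549. The log2 ratio of the highest to the lowest line at CA9, 3.43, was 2.19 relative to common regions and ran from 1.12 (without RKO) to 3.43 with a line left out, and was 2.31 without A549. The share of peaks with a core rose to 87.5% with a fold of at least 14 and 100% with a signal of at least 5, over 8 and 5 peaks. Among the alternatives run, 51 values kept their side or size, 19 moved and 0 reversed. Most were counts, shares or ratios of the highest to the lowest line, which have no direction that could reverse. The hypoxia peaks at CA2, SLC4A4 and SLC4A7 held 19 to 27 tags, where the weakest peaks of the hypoxia lists held 11 to 17.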

Other observations

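Just outside the CA9 window, about 16.1 kb upstream of the gene start in HCT116, a peak that overlaps the record of RMRP, the RNA component of a mitochondrial RNA-processing ribonuclease, was called in 3 hypoxia lists. It held 14.4 tags per 10 M in HCT116 (95% counting interval 11.9 to 17.2), 12.3 in RKO (9.75 to 15.2) and 26.7 in H460 (22.3 to 31.7), and 4.21 in RKO normoxia (2.54 to 6.58). A549, with the strongest CA9 peak, had no peak at this site, and HCT116, with no CA9 peak, had one that outranked 96.1% of its list. The nearest protein-coding or lncRNA gene start was that of CCDC107, 338 to 420 bp away. All 4 peaks held the core. These peaks were looked at after their values were seen, and the difference between lines was not tested.

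Within 50 kb of the other members, A549 had a peak at APH1B, downstream of CA12, at 7.95 tags per 10 M, with a core. The remaining peaks between 10 and 50 kb from a member were 3 in RKO, 1 in HCT116, 1 in A549 and 1 in H460, with 2.70 to 3.77 tags per 10 M. The RKO peaks near CA2 (3.55) and SLC4A4 (3.77) were from normoxia, and the others, with the APH1B peak, from hypoxia.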
